A study of Mus musculus with 2688 samples.

Results

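Microglia of the corpus callosum, the large white-matter tract between the hemispheres, were compared with microglia of the cortex, a grey-matter region, in CD1 mice labelled WT at 16 weeks. The members were the 8 region samples whose replicate labels name corpus callosum or cortex at that age, 4 for each region, out of 51 region samples in the series. They filled 380 of the 2688 wells deposited, and 320 of the 2402 wells kept as cells belonged to them, 148 from corpus callosum and 172 from cortex. A region sample is the sum of the reads of all kept cells that share a replicate label, and it is the unit of every test below.

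The study profiled single microglia from several regions of the central nervous system before birth, at 3 weeks and at 16 weeks by SmartSeq2, a full-length single-cell RNA-seq method, with 1 sorted cell per well and spike-in RNA of the ERCC set. Mice had been perfused, and cells of a Percoll gradient were stained for CD11b, CD45, Ly6C, Ly6G and CD206 before sorting as microglia. Neither group carried a named allele or had received a named agent. The submitters give 3 to 4 mice per region and age, with more than 1 region taken from each mouse. Whether a replicate number stands for a mouse is not stated, so the p-values below measure the spread between these region samples. All 4 corpus callosum samples lay on 1 plate, shared with hippocampus of 16 weeks, and all 4 cortex samples on another, so region and plate cannot be told apart in any value below. The hippocampus samples, which are grey matter on the same plate as corpus callosum, and the 3 corpus callosum and 3 cortex samples of 3 weeks are given beside the results as further levels.

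Microglia are the resident macrophages of the brain and depend on CSF1 receptor signalling and on TGF-beta. In grey matter they survey neurons and synapses, and in white matter they live among myelin sheaths and take up myelin debris. White-matter microglia are known for genes of phagocytosis, lysosomes, lipid handling and antigen presentation, a set that also marks microglia around plaques and in the developing white matter.

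The summed reads of a region sample ranged from 5509588 to 8088859 in corpus callosum (36 to 38 cells) and from 8163499 to 12808796 in cortex (37 to 47 cells). Of 190 sorted wells in each group, 40 of corpus callosum and 18 of cortex had fewer than 500 genes, and 2 more of corpus callosum had over 20% mitochondrial reads. The median reads per cell of a sample averaged 169737 ± 42425 (SD, n = 4) in corpus callosum and 240794 ± 59731 (SD, n = 4) in cortex, a difference that did not pass an exact two-sided permutation test over the 70 possible splits (p = 0.114, adjusted over 4 measures 0.343; the smallest p this design allows is 0.0286). At a fixed 37808 reads per cell, the samples' medians averaged 2070 ± 221 genes per cell in corpus callosum and 2227 ± 31 in cortex (SD, n = 4; exact permutation p = 0.171, adjusted 0.343). Mitochondrial reads took 1.95% ± 0.39 and 1.84% ± 0.26 (SD, n = 4), and spike-ins 0.248% ± 0.017 and 0.237% ± 0.034 (SD, n = 4), with adjusted exact permutation p-values of 0.6 for each, again over sample medians. Over 6785 genes, Spearman's rho of the levels was 0.577 to 0.651 between corpus callosum samples and 0.687 to 0.722 between cortex samples. It was 0.613 to 0.704 across the regions. By this measure 2 samples of corpus callosum were no closer to each other than to cortex. Every corpus callosum sample had fewer summed reads than every cortex sample, and the part of depth in rho was not tested.

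**Figure D1:**
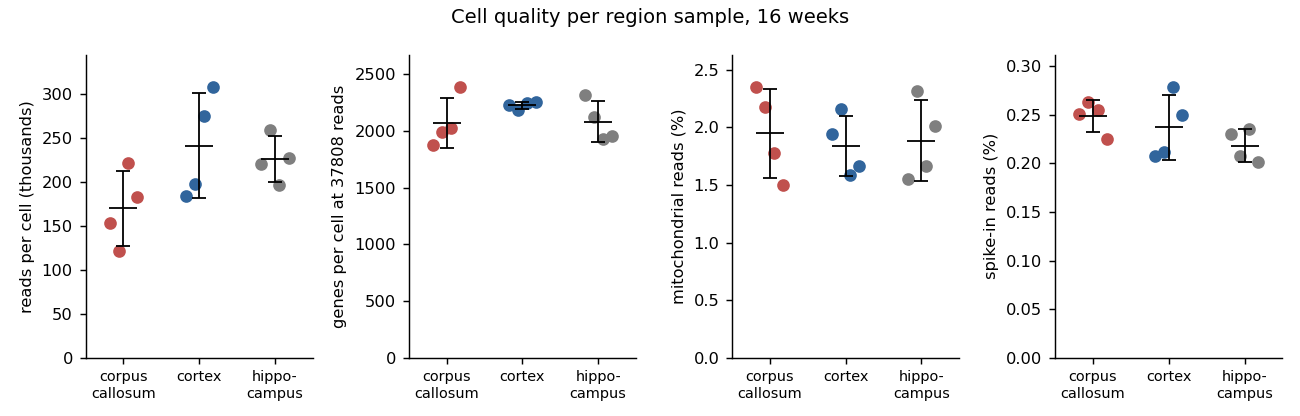
Median reads per cell (in units of 1000), genes per cell at 37808 reads, and mitochondrial and spike-in reads (percent) for the 16-week region samples of corpus callosum, cortex and hippocampus, 1 point per sample, with bars at the mean and its SD (n = 4). Corpus callosum samples had medians of 121526 to 221232 reads per cell and cortex samples 184174 to 307534, and the groups overlapped in all 4 measures.

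Both groups carried the markers of microglia. The summed level of 10 microglia markers was 62359 to 71877 CPM (reads scaled to a common library total) in corpus callosum and 69026 to 74854 CPM in cortex. Markers of border macrophages summed to 0.623 to 19.6 CPM and 1.49 to 12.2 CPM over 9 genes, with Pf4 at 0 in both groups. Markers of T and NK cells (3 genes) were at 0 in corpus callosum and summed to at most 0.691 CPM in cortex. Those of neutrophils (3 genes) reached 2.51 CPM in corpus callosum and were at 0 in cortex. Sums over longer lists reached higher levels. For T and NK cells (12 genes) they reached 13.72 CPM in corpus callosum and 13.04 CPM in cortex. For neutrophils (10 genes) they reached 10.92 CPM in corpus callosum and 3.451 CPM in cortex. Markers of monocytes (3 genes) summed to 3.77 to 28.4 CPM in corpus callosum and 20.6 to 66.8 CPM in cortex. Ly6c2, a defining gene of inflammatory monocytes, was at 0 in both groups. Oligodendrocyte markers (6 genes) summed to 71.0 to 135 CPM in corpus callosum and 40.8 to 84.3 CPM in cortex, where Mog and Cldn11 were at 0.

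A small set of cells in each group had little microglial RNA. Fewer than 20000 CPM summed over the 10 markers, a limit set after the values were seen, were found in 19 of 148 corpus callosum cells (12.8%; 3, 5, 3 and 8 in replicates 1 to 4), in 8 of 172 cortex cells (4.65%) and in 0 of 168 hippocampus cells. These cells were shallow, with a median of 21857 reads in corpus callosum against 181454 in the other cells, and they gave 2.57% of the reads of corpus callosum and 0.359% of those of cortex. The part of the cells of few markers in the gene results was not tested cell by cell. The comparison was repeated without them and again called 0 genes, a count that could not fall.

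No gene passed the threshold of an adjusted p of 0.05 between corpus callosum and cortex: edgeR's quasi-likelihood test with Benjamini-Hochberg adjustment called 0 of 11199 genes, or 0%. At an unadjusted p under 0.05 it listed 374 genes (3.34%), 190 (1.7%) higher and 184 (1.64%) lower in corpus callosum. DESeq2 called 25 genes, 15 of them higher in corpus callosum, and limma-voom called 1. Without the cells of few microglia markers edgeR called 0 of 10833 genes and listed 352 at an unadjusted p under 0.05. Fold changes above 0 on the log2 scale made up 51.2% of the genes, with a median of 0.02. The 4 and 4 samples did not overlap for 362 genes (3.23% of those tested), 161 (1.44%) higher and 201 (1.79%) lower in corpus callosum. In sums over cells, fewer cells with a transcript and less of it per cell cannot be told apart.

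The precision of a fold change depended on the level of the gene. The 95% interval of the fold change lay wholly within 2-fold of no change for 94 of 100 genes with a mean of at least 1000 CPM. The same held for 911 of 1674 genes from 100 to 1000 CPM. It held for 162 of 6835 genes from 10 to 100 CPM and for 0 of 2590 below 10 CPM. This count depends on the size of the fold as well as on its precision. The median standard error on the log2 scale was 0.15 for the first class and 1.49 for the last. These intervals do not measure the power to call a gene after adjustment. On simulated counts, with changed genes drawn from all levels, the test recovered 0 of 100 genes changed 2-fold and 7 of 100 changed 4-fold. Differences of 2-fold were thus mostly not detectable with 4 samples a group, and recovery by level was not examined.

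**Figure D2:**
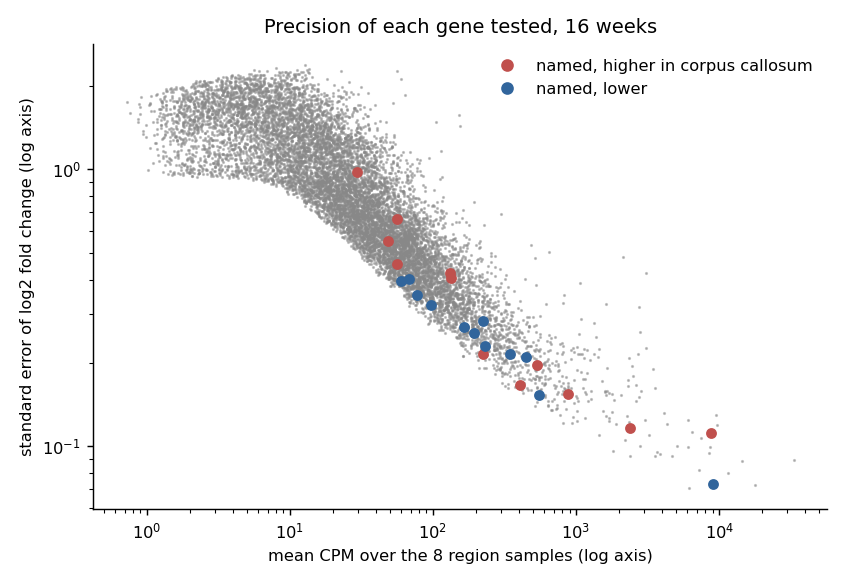
Standard error of the log2 fold change, corpus callosum over cortex, of each of the 11199 genes tested (log axis) against its mean CPM over the 8 region samples (log axis), 1 point per gene. The median standard error was 1.49 below 10 CPM, 0.74 from 10 to 100, 0.32 from 100 to 1000 and 0.15 from 1000 CPM.

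Slc34a2, a sodium-dependent phosphate transporter gene on chromosome 5 (GRCm38 53038081-53071664), was the gene with the smallest p. Its levels were 3336, 3165, 2764 and 3233 CPM in the corpus callosum samples and 1735, 1656, 1341 and 1691 CPM in the cortex samples. The groups did not overlap, and the fold was 1.95 (95% interval 1.63 to 2.33; log2 0.96 ± 0.12 SE; edgeR unadjusted p = 6.53e-06, adjusted p = 0.0731). Across 23 alternative settings the adjusted p ranged from 5.98e-08 to 0.478, and it passed the threshold in 6 of them. Hippocampus samples of the same plate as corpus callosum had 1583 to 2692 CPM, and the 3-week means were 1398 ± 404 in corpus callosum and 1404 ± 246 in cortex (SD, n = 3).

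Slc34a2 was also the leading gene of wells that held no cell. It had reads in all 24 blank wells of 6 of the 7 plates, 126 to 5070 reads per well, and took 34.5% to 88.9% of the gene reads of a plate's blanks. In the blanks of the cortex plate it took 8167 of 21432 gene reads (38.1%), from 1577 to 2931 reads in a well, whereas the median kept cell held 292, 293, 341 and 418 reads of it in the cortex samples and 478, 334, 609 and 479 in the corpus callosum samples. The 4 blanks of the corpus callosum plate held 10 to 71 gene reads and 0 to 1 spike-in reads, so no such level could be read there. Relative to spike-in reads, the median cell had 1.68, 1.48, 1.07 and 1.66 Slc34a2 reads per spike-in read in the corpus callosum samples and 0.94, 0.822, 0.503 and 0.718 in the cortex samples, again without overlap. The part of reads that do not come from the sorted cell in the Slc34a2 difference was not tested.

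The other genes described next had the smallest p-values among genes without overlap that had reads in at least 10% of the cells of every sample of the higher group. With Slc34a2, 100 such genes were higher and 116 lower in corpus callosum; the first 12 of each side are given as values, since none passed the threshold (edgeR adjusted p from 0.657 to 1 apart from Slc34a2).

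Tnfsf13b encodes BAFF, a TNF-family ligand that keeps B cells alive, and lies on chromosome 8 (10006467-10039072). Its levels were 97.6, 107, 135 and 71.4 CPM in corpus callosum and 19.8, 1.84, 10.1 and 8.20 CPM in cortex. The lowest corpus callosum sample was above the highest cortex sample, reads were present in a mean 27.04% of corpus callosum cells and 6.27% of cortex cells, and the log2 difference was 3.36 ± 0.66 (SE; edgeR unadjusted p = 0.000436). Hippocampus had 9.01 to 100 CPM, and at 3 weeks the gene was low in both regions, with means of 6.86 and 3.01 CPM in corpus callosum and cortex. DESeq2 called it with an adjusted p of 6.42e-05.

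Il1rl2, the receptor of the IL-36 cytokines (chromosome 1, 40324610-40367562), had 320, 229, 118 and 177 CPM in corpus callosum and 81.2, 53.4, 28.8 and 36.8 CPM in cortex. The groups did not overlap (log2 2.08 ± 0.42 SE), and hippocampus averaged 51.4 CPM beside 50.1 CPM in cortex. Cdca7, a gene of DNA methylation maintenance and cell growth (chromosome 2, 72476159-72486893), had 115, 116, 45.1 and 93.6 CPM in corpus callosum against 18.9, 24.3, 13.7 and 19.9 CPM in cortex (log2 2.27 ± 0.45 SE). At 3 weeks the means of Cdca7 were 76.3 CPM in corpus callosum and 70.1 CPM in cortex, and those of Il1rl2 were 48.2 and 51.2 CPM. Nsun3, which modifies a mitochondrial transfer RNA, had 18.5, 67.3, 80.9 and 56.4 CPM in corpus callosum against 9.28, 1.35, 1.02 and 0.988 CPM in cortex. Reads of Il1rl2 were found in 35 of 148 corpus callosum cells and 28 of 172 cortex cells. Those of Cdca7 were found in 31 and 24 cells, and those of Nsun3 in 18 and 13. For each of these genes the median cell of every sample held 0 reads.

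Ctsl, the lysosomal protease cathepsin L (chromosome 13, 64363214-64370306), had 1169, 1039, 908 and 1146 CPM in corpus callosum and 701, 846, 609 and 613 CPM in cortex (log2 0.62 ± 0.15 SE). The groups did not overlap, hippocampus lay between them at a mean of 873 CPM, and at 3 weeks the means were 973 ± 30 and 740 ± 70 CPM in corpus callosum and cortex (SD, n = 3). Ifi30, the lysosomal thiol reductase GILT (chromosome 8, 70762774-70766663), had 325, 258, 284 and 297 CPM in corpus callosum and 119, 160, 172 and 183 CPM in cortex (log2 0.88 ± 0.22 SE). Reads of Ifi30 were present in a mean 67.6% of corpus callosum cells and 58.6% of cortex cells. At 3 weeks the order of Ifi30 was the other way, with 184 ± 31 CPM in corpus callosum and 292 ± 20 CPM in cortex (SD, n = 3).

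The remaining genes on the corpus callosum side were mt-Rnr2, Eef2, Pald1, Fat3 and Zfp68. The mitochondrial 16S ribosomal RNA, mt-Rnr2, had 10670, 11430, 8261 and 10210 CPM in corpus callosum and 7792, 7869, 6359 and 7229 CPM in cortex (log2 0.47 ± 0.11 SE), while hippocampus, on the corpus callosum plate, averaged 10140 CPM. At 3 weeks its means were 8706 and 3987 CPM. Eef2, the elongation factor that moves the ribosome along, had 459 to 542 CPM against 282 to 376 CPM. Pald1, a phosphatase-like protein, averaged 663 and 396 CPM, Fat3, a giant cadherin, 80.0 and 17.8 CPM, and the zinc finger gene Zfp68 197 and 69.7 CPM. Reads of Fat3 were found in 25 of 148 corpus callosum cells and 24 of 172 cortex cells, and those of Zfp68 in 35 and 38. The median cell of every sample held 0 reads of both genes.

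On the cortex side, Lag3, an inhibitory receptor best known from T cells (chromosome 6, 124904361-124911705), had 265, 191, 167 and 291 CPM in corpus callosum and 465, 498, 409 and 495 CPM in cortex. No sample of the groups overlapped, and reads were present in a mean 51.4% of corpus callosum cells and 75.9% of cortex cells (log2 -1.03 ± 0.21 SE). The order was the same at 3 weeks, with 593 ± 71 CPM in corpus callosum and 1047 ± 159 CPM in cortex (SD, n = 3). Hippocampus of 16 weeks averaged 290 CPM.

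Nrros, the anchor protein through which microglia activate TGF-beta (chromosome 16, 32142785-32165594), had 236, 373, 355 and 245 CPM in corpus callosum and 497, 714, 578 and 559 CPM in cortex (log2 -0.96 ± 0.21 SE). The 2 regions did not overlap, and hippocampus, on the corpus callosum plate, had 474 to 807 CPM, above every corpus callosum sample. At 3 weeks the means were 504.2 and 462.8 CPM. Of the 13 tested members of the TGF-beta signalling list (19 listed), which include Nrros, none passed the threshold, 4 were above 0 and the median log2 difference was -0.15, beside 0.02 over all genes. Without cortex replicate 4, 7 of 13 were above 0 with a median of 0.01, and without corpus callosum replicate 4, 6 of 13 with a median of -0.03.

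Pddc1, a class I glutamine amidotransferase-like gene on chromosome 7 (141407794-141414136), had 16.2 to 33.8 CPM in corpus callosum and 82.0 to 105 CPM in cortex (log2 -2.01 ± 0.40 SE). Rn18s-rs5, which carries the 18S ribosomal RNA and has near-identical copies, so that its reads may be split among them, had 7564 to 8171 CPM against 9347 to 10600 CPM (log2 -0.34 ± 0.07 SE). It took 1256 of the gene reads of the cortex plate's blanks (5.86%), so part of it was also seen without a cell. Eif4g2, a translation initiation factor, had 454, 426, 514 and 392 CPM in corpus callosum and 677, 581, 615 and 713 CPM in cortex (log2 -0.53 ± 0.15 SE). The other 7 were Agmo, which cleaves ether lipids, Uimc1, Cct5, Tnrc6a, Dhx15, Idh3b and Mgat1, with log2 differences from -1.55 for Uimc1 to -0.82 for Mgat1.

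**Figure D3:**
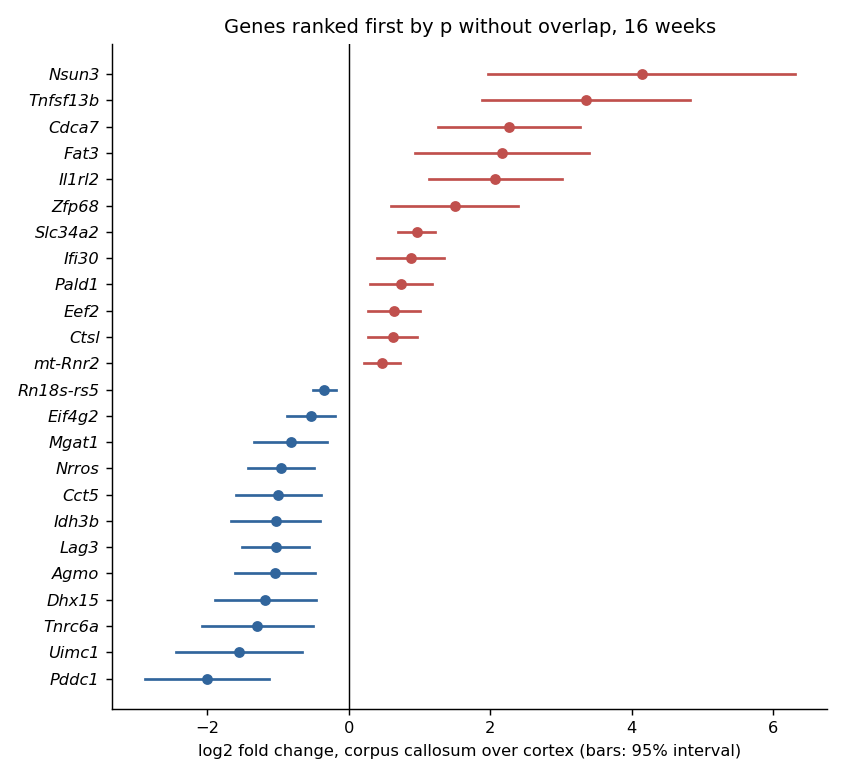
Log2 fold change, corpus callosum over cortex at 16 weeks, with its 95% interval from edgeR, of the 12 genes per direction with the smallest p among genes without overlap between the 4 and 4 samples and with reads in at least 10% of the cells of every sample of the higher group, red where higher and blue where lower in corpus callosum. Slc34a2 had the smallest p at 0.96, the values ran from -2.01 for Pddc1 to 4.14 for Nsun3, and no gene passed the threshold after adjustment.

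Whether the regional difference changed with age was tested as the corpus callosum to cortex difference at 16 weeks minus that at 3 weeks. edgeR called 0 of 14497 genes (0%), with 891 (6.15%) at an unadjusted p under 0.05, while DESeq2 called 99 and limma-voom 2. Among the 24 genes above, Ifi30 had a difference of differences of 1.501 ± 0.289, Rn18s-rs5 -0.50 ± 0.10 and Eif4g2 -1.04 ± 0.20 (SE, log2; edgeR adjusted p = 0.330 for each). Ifi30 and Eif4g2 had opposite orders at the 2 ages: Eif4g2 averaged 742 CPM in corpus callosum and 539 CPM in cortex at 3 weeks. For Slc34a2 the difference of differences was 0.92 ± 0.24, for Eef2 1.00 ± 0.25 and for Nrros -1.12 ± 0.28, with edgeR adjusted p = 0.701 for each. Every region of each age was on 1 plate, so age and plate cannot be told apart either.

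Against hippocampus, which shared its plate, corpus callosum also differed in no gene by edgeR, with 0 of 11145 called and 382 (3.43%) at an unadjusted p under 0.05. Hippocampus against cortex gave 0 of 11225, with 391 (3.48%) at an unadjusted p under 0.05. At 3 weeks, corpus callosum against cortex gave 0 of 11800, with 799 (6.77%) at an unadjusted p under 0.05. These comparisons share samples with the one between corpus callosum and cortex and were run with no other tool.

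**Figure D4:**
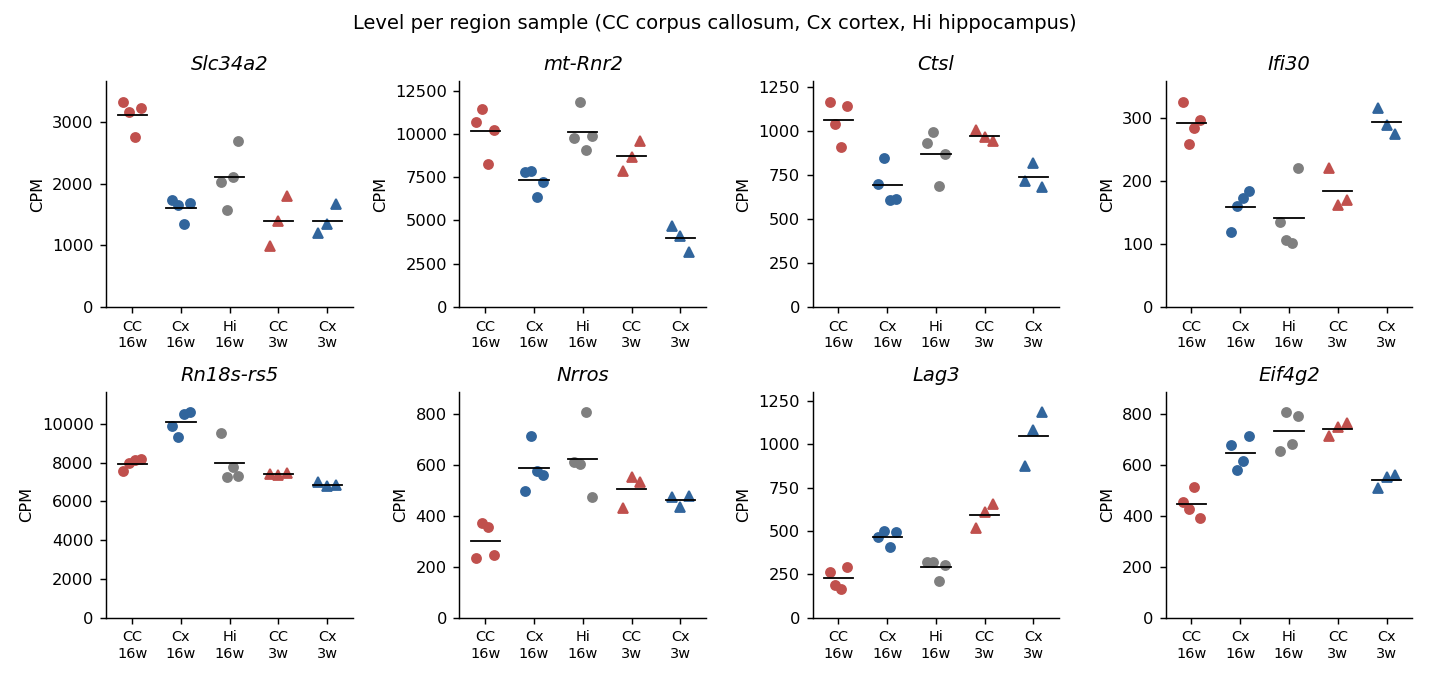
Levels in CPM (linear axes from 0) of 8 genes in the corpus callosum, cortex and hippocampus samples of 16 weeks (circles, n = 4) and the corpus callosum and cortex samples of 3 weeks (triangles, n = 3), 1 point per region sample with a line at the mean. At 16 weeks corpus callosum and cortex did not overlap for any of the 8; for Slc34a2, Nrros and Lag3 the means were 3124 and 1606, 302 and 587, and 228 and 467 CPM.

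The gene lists of microglial function are described next by counts, with 0 called members by edgeR in every one (0% of all genes called) and with 51.2% of all genes above 0. Of 20 homeostatic microglia genes, all tested, 18 were below 0, and the median log2 difference was -0.16. Its median stayed below 0 under all 23 alternatives, from -0.20 to -0.03; leaving out the highest cell of each gene moved the count above 0 from 2 to 8 of 20. The sums include the cells of few microglia markers, 19 of 148 in corpus callosum and 8 of 172 in cortex. Without these cells 3 of 20 genes were above 0, with a median of -0.12.

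P2ry12, the purine receptor that directs microglial processes, had 9693, 11480, 11000 and 10110 CPM in corpus callosum and 11250, 12420, 13080 and 12380 CPM in cortex (log2 -0.22 ± 0.08 SE; edgeR unadjusted p = 0.0212, adjusted p = 1). The highest corpus callosum sample overlapped the lowest cortex sample. Tmem119 differed by -0.07 ± 0.11, Cx3cr1, the fractalkine receptor, by -0.17 ± 0.10 and Csf1r by -0.08 ± 0.09 (log2, SE). Sall1, a transcription factor of microglial identity, averaged 478 ± 98 and 567 ± 76 CPM (SD, n = 4).

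Fcrls, an Fc receptor-like gene used as a microglia marker, had the most negative value of the list. Its levels were 1235, 1191, 3036 and 1785 CPM in corpus callosum and 3277, 2401, 5315 and 3687 CPM in cortex (log2 -1.02 ± 0.32 SE; edgeR unadjusted p = 0.0092, adjusted p = 1). Corpus callosum replicate 3 lay above cortex replicate 2, so the groups overlapped. In each replicate number the corpus callosum sample was the lower one, but the numbers were not taken as a pairing. Reads were found in 109 of 148 and 166 of 172 cells. It passed the threshold under 1 alternative, with no filter on low counts (edgeR adjusted p = 0.000221), and its adjusted p under the others was between 0.147 and 1. Among the 20 homeostatic genes the groups failed to overlap only for Tgfbr1 (beside 3.23% of all genes tested), the type I receptor of TGF-beta, with 1382 to 1685 CPM in corpus callosum and 1314 to 1355 CPM in cortex (log2 0.22 ± 0.11 SE).

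Of 25 genes of phagocytic and disease-associated microglia, 18 were tested and 14 were above 0 (median 0.20). Without corpus callosum replicate 3, 9 of 18 were above 0. Cd9, a tetraspanin, had 727 to 1074 CPM in corpus callosum and 609 to 724 CPM in cortex (log2 0.39 ± 0.16 SE). Fth1, the ferritin heavy chain that stores iron, had 623 to 846 and 347 to 589 CPM (log2 0.61 ± 0.19 SE); its row in the table joins exons on 2 chromosomes, so its reads may mix loci. Cd9 and Fth1 were the only tested members of the list whose groups did not overlap, 2 of 18 beside 3.23% of all genes tested.

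The lipid carrier Apoe showed no order between the regions. Its levels were 109, 788, 960 and 881 CPM in corpus callosum and 532, 780, 458 and 643 CPM in cortex (log2 0.18 ± 0.50 SE). Genes that mark strongly activated cells were sparse: Axl had 0.858, 61.3, 0.249 and 3.54 CPM in corpus callosum and 1.51, 14.1, 0 and 0 CPM in cortex, and Itgax averaged 16.9 and 12.3 CPM. Cst7, which encodes the protease inhibitor cystatin F, averaged 4.68 and 2.17 CPM.

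Clec7a, the beta-glucan receptor dectin-1 and a marker of white-matter and plaque-associated microglia, did not pass the filter on low counts and was singled out after its values were seen. With no filter it was among the 22 genes called (edgeR adjusted p = 0.000221), with 713 reads against 0. In corpus callosum the 713 reads lay in 5 of 148 cells, and the cells' reads were 65 in replicate 1, 323 and 1 in replicate 2, 323 in replicate 3 and 1 in replicate 4. It had 0 reads in 172 cortex cells and 0 in 168 hippocampus cells. Cerebellum, with 690 reads in 4 of 183 cells, and spinal cord, with 848 reads in 5 of 165 cells, were the other 16-week regions with reads. Of the pair of corpus callosum cells with 323 reads, that of replicate 2 held 536 reads of P2ry12 and 272 of Spp1, and that of replicate 3 held 0 reads of P2ry12 and 1049 of Apoe.

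In the lysosome list, 13 of 24 tested members (25 listed) were above 0, with a median of 0.01. Ctsb, cathepsin B, averaged 3172 ± 985 and 2966 ± 643 CPM (SD, n = 4). Ctsh, cathepsin H, had 1349, 1694, 924 and 1010 CPM in corpus callosum and 534, 912, 837 and 850 CPM in cortex (log2 0.67 ± 0.23 SE), with the lowest corpus callosum sample just above the highest cortex sample. Psap, the precursor of the saposins, was lower in every corpus callosum sample, with 2319 to 2775 CPM against 2781 to 3179 CPM (log2 -0.15 ± 0.10 SE).

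Among phagocytic and scavenger receptors and their ligands, 5 of 14 tested members (20 listed) were above 0 (median -0.06). Pros1, protein S, a bridge between phosphatidylserine on dying cells and the TAM receptors, had 1156, 1064, 970 and 1202 CPM in corpus callosum and 772, 847, 732 and 819 CPM in cortex. Its groups did not overlap (log2 0.47 ± 0.13 SE; edgeR unadjusted p = 0.00383, adjusted p = 1), and the 3-week means were 829 and 588 CPM. Cd14, the co-receptor for lipopolysaccharide, had 272 to 404 and 237 to 255 CPM. In the complement list 3 of 10 tested members (15 listed) were above 0 (median -0.14), with C1qa at 3504 ± 311 and 3836 ± 196 CPM and C1qb at 3763 ± 295 and 3902 ± 246 CPM (SD, n = 4).

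MHC class II genes, which present extracellular antigen to CD4 T cells, rested on few cells. Of 7 tested members (9 listed) 6 were above 0 with a median of 0.50; without corpus callosum replicate 4 the median was -0.70. Cd74, the invariant chain, had 11.7, 56.9, 23.03 and 798 CPM in corpus callosum and 0.464, 44.9, 9.57 and 277 CPM in cortex, with hippocampus between 3.37 and 996 CPM. H2-Aa had 0, 7.30, 0 and 319 CPM in corpus callosum and 0.232, 14.1, 0 and 106 CPM in cortex. Replicate 4 stood above the other 3 in both regions. Over the 20 region samples of 16 weeks, 13 cells held at least 100 H2-Aa reads, 11 of them in replicates numbered 4, and the 183 cells of cerebellum and 165 of spinal cord held 0 H2-Aa reads.

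Of 13 tested chemokine and cytokine genes (21 listed), 8 were above 0 (median 0.21). The median was -0.435 without corpus callosum replicate 1 and -0.10 without replicate 2, -0.27, -0.18 and -0.04 without cortex replicate 1, 2 or 4, and -0.01 with no filter on low counts; it kept its sign in the other 17 of 23 alternatives. Ccl9, a chemokine of the CCR1 receptor, had 227, 94.7, 215.5 and 122 CPM in corpus callosum and 93.5, 69.8, 82.2 and 50.4 CPM in cortex (log2 1.16 ± 0.37 SE; edgeR unadjusted p = 0.00979, adjusted p = 1). The groups just failed to overlap, and at 3 weeks the means were 258 ± 33 and 92.4 ± 15.6 CPM (SD, n = 3). Of 13 tested type I interferon response genes (20 listed), 10 were above 0 (median 0.46), but the median turned to -0.19 with cells thinned to 1 depth, to -0.11 without the highest cell of each gene and to -0.02 without corpus callosum replicate 3. Immediate early and stress genes, which also respond to tissue dissociation, were above 0 in 11 of 14 tested (24 listed; median 0.24), with Btg2 at 353 to 468 CPM in corpus callosum and 156 to 350 CPM in cortex.

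Iron and oxidative stress genes were above 0 in 8 of 16 tested (18 listed; median 0.01). Gpx1, the cytosolic glutathione peroxidase, had 337 to 390 CPM in corpus callosum and 238 to 285 CPM in cortex (log2 0.52 ± 0.17 SE), and hippocampus averaged 399 CPM. Slc40a1, the iron exporter ferroportin, had 481 to 619 and 632 to 720 CPM (log2 -0.28 ± 0.15 SE). Cytosolic ribosomal protein genes were above 0 in 52 of 74 tested (82 listed; median 0.17), glycolysis genes in 12 of 16 (median 0.26), adhesion and matrix genes in 11 of 13 (20 listed; median 0.22) and nuclear genes of oxidative phosphorylation in 39 of 88 (103 listed; median -0.02). Transcription factors of microglia and macrophages were above 0 in 6 of 20 (21 listed; median -0.11) and S phase genes, which include Cdca7, in 5 of 15 (20 listed; median -0.47).

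**Figure D5:**
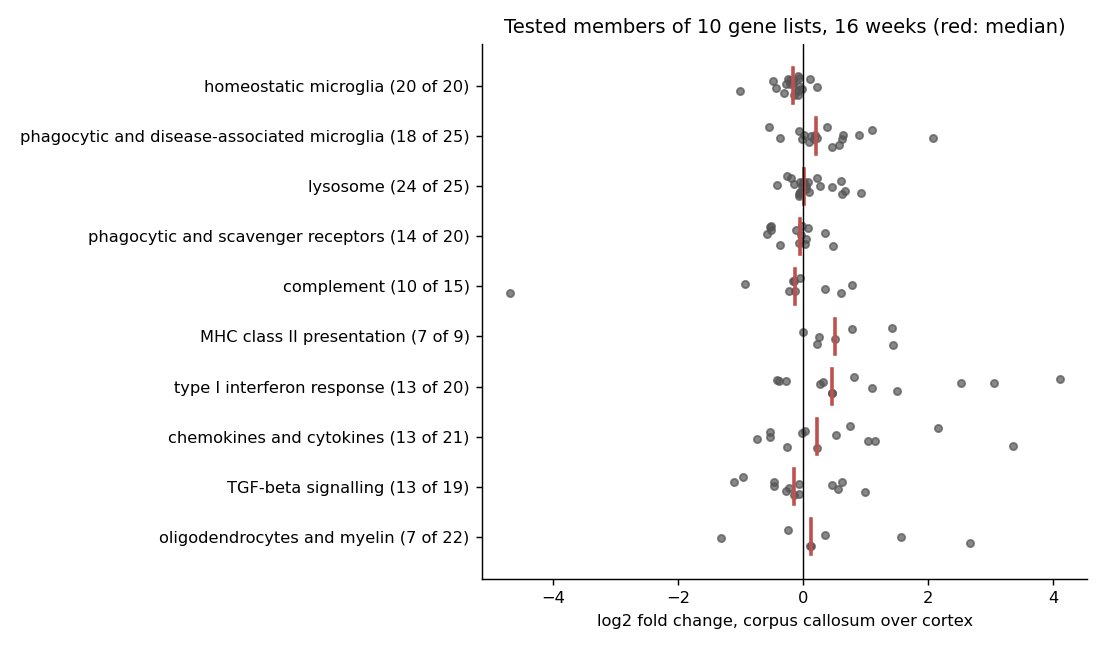
Log2 fold change, corpus callosum over cortex at 16 weeks, of the tested members of 10 gene lists, 1 grey point per gene with the list's median in red; the counts beside each name are members tested of members listed. Homeostatic genes had a median of -0.16 with 18 of 20 below 0, phagocytic and disease-associated genes a median of 0.20 with 14 of 18 above 0, and no gene passed the threshold.

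Transcripts of other brain cells were present at low levels in both groups. Of 22 oligodendrocyte and myelin genes 7 were tested, 5 of them above 0 (median 0.12). With no filter on low counts 16 of 20 were above 0 with a median of 2.67, when the median of all genes was 0.18. Mbp, myelin basic protein, averaged 30.5 ± 9.6 CPM in corpus callosum and 28.2 ± 16.5 CPM in cortex (SD, n = 4), and Mag, a myelin glycoprotein, 26.3 ± 7.3 and 31.3 ± 20.6 CPM. Mobp, another myelin protein gene, had 0, 44.0, 0.747 and 18.9 CPM in corpus callosum and 0, 4.18, 0 and 5.83 CPM in cortex. The neuronal gene Snap25 had 0.172 to 2.74 CPM in corpus callosum and 3.44 to 16.9 CPM in cortex. The sum of 6 neuronal markers overlapped, at 5.76 to 10.8 and 6.26 to 27.3 CPM. Of 3 tested neuronal genes (12 listed) 1 was above 0, and with no filter on low counts 6 of 12 were. The monocyte receptor gene Ccr2 had 3.77 to 26.7 and 12.6 to 66.8 CPM. Where these transcripts came from was not tested.

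Shares of cells in defined states did not pass the test for a difference. States were scored in 127 corpus callosum and 161 cortex cells thinned to 37808 reads, with 21 and 11 shallower cells left out. At least 5 genes of the G2/M phase list had reads in 0 of 127 corpus callosum cells, which allows a share of up to 2.36% by counting error over the pooled cells alone, and in 3 of 161 cortex cells (exact permutation p = 0.143, adjusted over 6 states 0.857). Without thinning such cells were 1 of 148 and 3 of 172. Cells with at least 3 MHC class II genes were 19 of 127 and 19 of 161, or 15.1% ± 5.4 and 12.1% ± 8.0 per sample (SD, n = 4; exact permutation p = 0.486, adjusted 0.891), and 23 of 148 and 26 of 172 without thinning. Cells with at least 5 interferon response genes were 3 and 3, cells with both Ccl3 and Ccl4 2 and 2, cells with at least 2 border macrophage genes 1 and 1, and cells with at least 2 oligodendrocyte genes 72 and 79, a count that 1 blank well also reached. All adjusted exact permutation p-values of these 6 states were between 0.857 and 1.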

How the data were processed

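The authors deposited 1 table of unnormalised read counts per gene and well, with gene positions per the file headers. STAR 2.5.2b, featureCounts 1.6.2 and GRCm38 are named in the submitters' processing notes; settings, annotation and strand handling are not given in the sources used here. The table has 48587 gene rows, of which 716 carry a symbol that another row also carries, and 92 spike-in rows, which were left out of library sizes (0.367% of counts in the 2 groups).

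Wells of plate columns 1 and 2 hold the counts of other wells whose names begin alike. These were subtracted in 224 wells, 0 of them among corpus callosum and cortex of 16 weeks, with 0 values below 0. Wells with at least 500 genes and at most 20% mitochondrial reads were kept and summed per region sample. Genes were tested with edgeR 4.0.16 in R 4.3.3 (TMM, filterByExpr, robust quasi-likelihood F test, two-sided, Benjamini-Hochberg adjustment over all genes tested, threshold 0.05) on the samples compared only. CPM are counts scaled to the TMM-adjusted library total, on 1 scale for all groups. The standard error is the log2 fold change divided by the square root of F. On simulated counts of this comparison (10550 genes tested) the test recovered 0 of 100 genes changed 2-fold and 7 of 100 changed 4-fold, with 0 false calls.

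Named genes were, where none was called, the first 12 by p in each direction among genes without overlap and with reads in at least 10% of the cells of every sample of the higher group; from each list up to 2 members of highest CPM, of which 1 is not reported here. The other list members and Clec7a were named after their values were seen. The members and the lists were chosen with earlier results of these data known. Shares and cell measures were compared by exact permutation tests (numpy 2.4.6, Python 3.11.15). Alternatives used DESeq2 1.42.0 and limma 3.58.1 (voom), other scaling, filters, wells and samples, and leaving out each replicate; the settings without cells of few microglia markers and on deposited or left-out columns 1 and 2 were chosen after seeing the data. Intervals and limits cover counting error or the spread between samples only.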

Additional observations from a re-analysis of the deposited data

Results flagged for a closer look

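Among 136 groups of 4 samples examined, 18 had a sample set apart from the rest. Its gap to its nearest neighbour took more of the group's range than Dixon's 95% critical value for 4 samples allows. A chance rate was not set beside this count, since some genes were named after their values were seen. A share that was 0 in every other sample, as for border macrophage genes, is also flagged at any value. Replicate 4 stood high for MHC class II genes: Cd74 was at 798 CPM in corpus callosum and 277 CPM in cortex, H2-Aa at 319 and 106 CPM, and H2-Ab1 at 246 CPM in cortex. Replicate 2 stood apart for Axl, at 61.3 CPM in corpus callosum and 14.1 CPM in cortex, for Csf1r in corpus callosum, at 16800 CPM, and in cortex for Idh3b, low at 211 CPM, and Gpx1, high at 285 CPM. Replicate 1 stood apart for Csf1r in cortex, low at 14220 CPM, and in corpus callosum for Psap, low at 2319 CPM, and Cd14, high at 404 CPM. In cortex replicate 1 also stood high for Nsun3, at 9.28 CPM. Of the shares of cells, corpus callosum replicate 2 was low for interferon response at 0%, replicate 1 was high for border macrophage genes at 2.94% and for oligodendrocyte genes at 76.5%, and cortex replicate 4 was high for border macrophage genes at 2.94%. The causes were not tested.

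A signal also stood in wells outside the comparison. Slc34a2 took 38.1% of the gene reads in the blank wells of the cortex plate, which held no sorted cell.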

How the results depend on the processing

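The 24 genes named by p (12 per direction) kept their direction in all 552 alternative values. They were picked from these same samples for groups without overlap, so a change of direction was largely barred in advance. Of the 552 values, 18 passed the threshold where edgeR's reported value did not. The number of genes called was 0 in all 8 fits without 1 replicate. It was 25 by DESeq2, 22 with no filter on low counts, and 1, Slc34a2, each by limma-voom, with at least 10 CPM in 4 samples and in the fit over 20 samples of 16 weeks; in the other settings, apart from the block below, it was 0. The age difference called 99 genes by DESeq2, 7 with no filter, 5 in the fit over all 51 samples and 2 by limma-voom. Corpus callosum against cortex at 3 weeks called 1 gene, mt-Rnr2, on the counts as deposited.

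Same-numbered samples of the 2 regions correlated in their deviations with r from 0.0215 to 0.0815 over 6785 genes, so the numbers were not taken as a pairing, although each sample correlated best with its own number, as a hint from the data. With the replicate number as a block 1 gene, Slc34a2, was called.

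Of 1315 alternative values of 58 genes followed singly, 26 changed sign, in genes whose differences were small or rested on few cells; the causes were not tested. Without the highest cell of each gene the log2 differences were 0.0462 for Tmem119, 0.0783 for Csf1r, 0.0386 for Psap, 0.0427 for C1qb and -0.074 for Mbp. By limma-voom they were -0.0835 for Apoe, -0.0249 for H2-Aa, -0.782 for H2-Ab1 and 0.0535 for Mag, and with the replicate block -0.12 for Apoe, -0.0517 for H2-Aa and 0.0109 for Mag. With at most 5% mitochondrial reads Mbp was at -0.0232. Leaving out 1 replicate gave -0.137 to 0.00787 for Tmem119, -0.0333 to 0.532 for Apoe, -1.34 to 5 for Axl, -0.0511 to 0.225 for Ctsb, -1.44 to 3.60 for Cd74, -3.64 to 4.09 for H2-Aa, -1.15 to 2.65 for H2-Ab1, -0.15 to 0.513 for Mbp and -0.551 to 0.109 for Mag.

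Of 106 values of cell measures 9 changed sign. The interferon share differed by -0.253 percentage points without thinning, and the oligodendrocyte share by -1.87 with 1 more gene asked for. Leaving out 1 replicate gave differences, in percentage points, of -0.0234 to 0.261 for mitochondrial reads, -0.0715 to 1.64 for the interferon share, -0.107 to 5.90 for MHC class II, -0.139 to 9.26 for oligodendrocyte genes and -0.157 to 0.885 for Ccl3 and Ccl4. Precision was lowest for genes below 100 CPM. An interval within 2-fold of no change was found for 162 of 6835 genes from 10 to 100 CPM and 0 of 2590 below 10 CPM. How much of the low precision is depth, few cells with reads or spread between samples was not tested.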
